A study of Anser sp. with 4 samples.

Results

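The transcripts described here gave a lower signal on the array of goose skin taken 10 days after molt than on the arrays of 3 earlier times. A transcript identifier was taken when its log2 signal at 10 days lay at least 1.2 below the lowest of its 3 earlier values (before molt, 1.5 and 5 days after it). Levels are log2 processed signals minus the array's 75th percentile, averaged per identifier over its probes in use (those well above background on 1 or more arrays), and values under -3.7 were set to -3.7. Of 20408 identifiers with such a probe, 199 met this rule, which is 0.975%. The members were chosen by these same measured values, so their low level at 10 days is a description and not a finding.

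Ventral skin came from female geese, named Wanxi-White in the series title, and its total RNA was read on 4 arrays: skin from before the molt, and skin 1.5, 5 and 10 days into regrowth. The birds were moved to pens at 10 weeks of age, and 6 of them, kept in a separate pen, were sampled at each time. Their age at sampling is not given in the labels, which also do not say whether RNA was pooled or which bird gave it. All 4 arrays lay on 1 slide read in 1 scan, and their probes were annotated on the chicken build galGal3. With 1 array per time no value has a replicate error, no test between times was possible and no p-value is given. In whole skin, fewer cells that hold a transcript and less of it per cell cannot be told apart.

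A feather grows from a follicle, an epidermal pocket around a dermal papilla. At molt the old feather is shed, and the follicle passes from rest to growth, in which epidermal cells above the papilla proliferate, form barbs and fill with keratin. Skin taken during regrowth therefore holds growing follicles together with the skin between them, its vessels, muscle and blood. The files name transcripts by accession and pair none with a gene symbol, so no member could be given a gene name or a function, the lists of keratin, matrix, signalling, immune and muscle genes could not be matched, and markers of skin cell types were not read. Of the members 4 are named by their identifiers, 2 for the size of the drop and 2 for a higher level at 5 days before it.

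The members were not spread evenly over the array. On the grid of 532 rows and 85 columns, 150 of the 223 probe spots in use for members, 67.3%, lay in a block of rows 77 to 190 and columns 1 to 40, which held 10.4% of all probe spots in use. The outline of this block was drawn after the values were seen. Of the 1668 identifiers whose probes in use all lay inside it, 135 were members, 8.09%. Of the 17664 identifiers whose probes all lay outside, 50 were members, 0.283%. The remaining 14 members were among 1076 identifiers with probes in both places, 1.30%. With each other array as the odd one out, the rule found 178 identifiers low before molt, 0.872%, 90 low at 1.5 days, 0.441%, and 244 low at 5 days, 1.2%, so that 199 at 10 days lay within the range of the other arrays. Counted by single spots, 172 of the 243 spots that were low at 10 days lay in the block, 70.8%. The same rule applied to the other arrays placed 32 of 295 spots low before molt, 1 of 113 low at 1.5 days and 17 of 304 low at 5 days in that block.

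**Figure D1:**
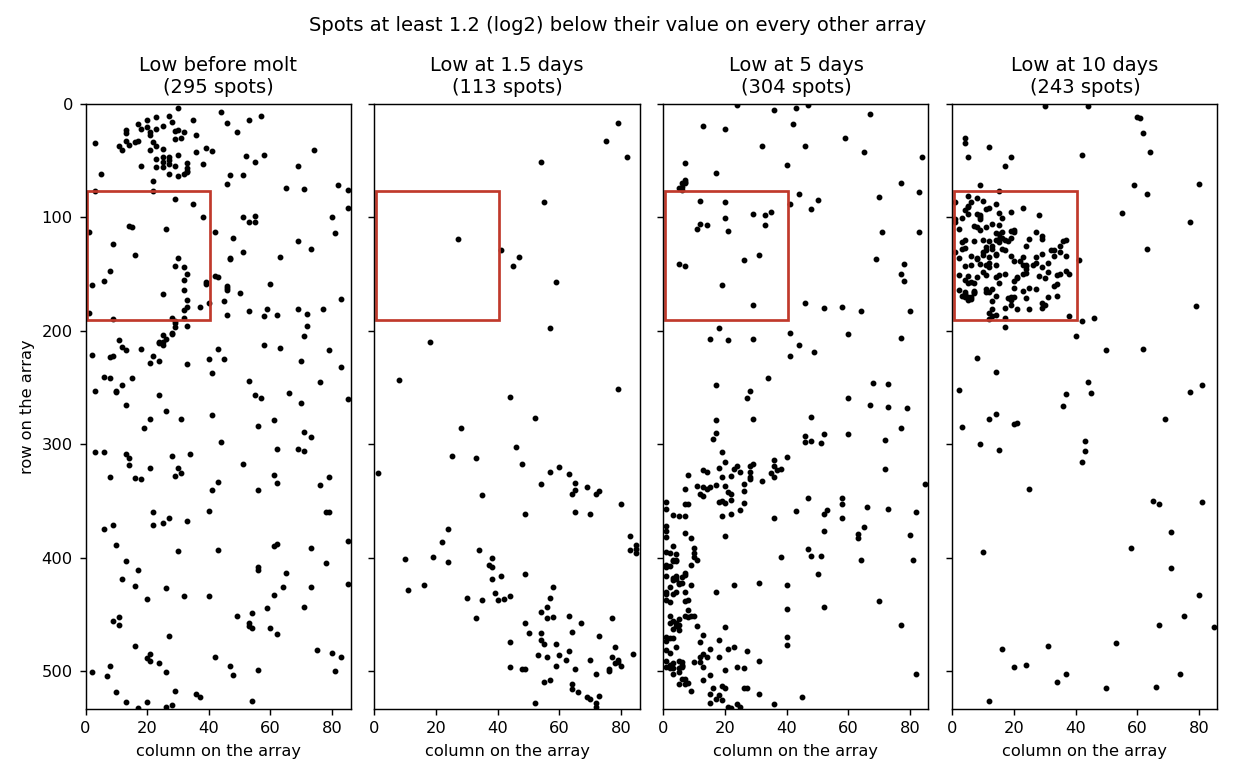
Each dot is a spot at least 1.2 (log2) below its own value on every other array, drawn at its row and column on the array, with 1 panel per time and the block outlined in red. At 10 days 172 of 243 dots lie inside the outline, against 32 of 295 before molt, 1 of 113 at 1.5 days and 17 of 304 at 5 days.

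The difference inside the block was also present in probes that no member uses. Among the 50 probes spotted 5 times each, none (0) of a member, 19 had spots in both places. Of these, 10 were well above background at 10 days in every spot outside and were kept. That condition was set on the spots outside at 10 days alone, which can favour a lower signal inside at that time. Of the 4 dimmer probes kept, with a level under 0 outside, 3 had a mean inside that was more than 2-fold below the mean outside at 10 days, and below every spot outside. A spot inside that was not well above background was raised to the array's lowest level among spots that were, where it lay under it. This makes the difference an approximate limit, since some spots above that level were not well above background either. For 1 of the 3, well above background in every spot, the signal inside minus outside was -1.63. The other 2 had no spot inside well above background at 10 days and had bounds of -1.62 and -1.93, at least 3.08-fold lower inside in each. The remaining dim probe, at -2.20 outside, did not share this, with a difference of 0.03. Before molt, when every spot of the 4 probes was well above background, the differences ran from -0.18 to 0.54. At 1.5 days every spot was so for 2 of the 4, with 0.02 and 0.34, and at 5 days for 1, with -0.07.

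In probes spotted repeatedly, the bright ones differed less between the places. For the 6 repeated probes with a level of 0 or more, inside minus outside was -0.35 to 0.08 at 10 days. The spike-in control RNAs, transcripts of known sequence added to each labelling, had 7 probes with such a level, and these stood at 0.02 to 0.20 at 10 days. Of the 3 dimmer spike-in probes, the one at a level of -1.35 outside had a difference of 0.01 at 10 days. The other two had -0.37 and -0.16 at 10 days, against -0.99 and -0.62 before molt, and the second of them, at -4.17 outside at 10 days, lay under the lowest level of spots well above background there, -4.01. No dim control was thus as much lower inside at 10 days as the 3 repeated probes above.

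**Figure D2:**
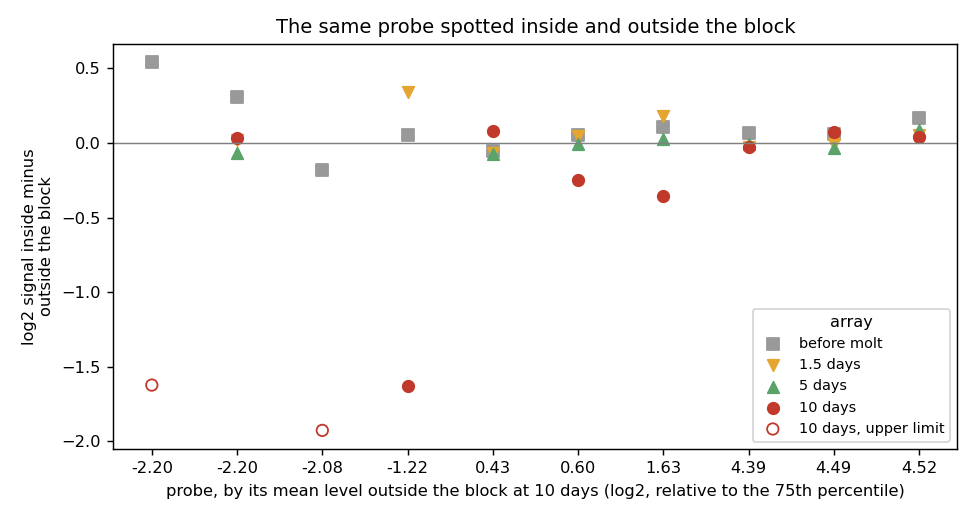
For each of 10 probes spotted both inside and outside the block, the y axis gives the mean log2 signal inside minus outside on each of the 4 arrays, and the x axis orders probes by their mean level outside at 10 days. The 10 probes were kept for being well above background at 10 days in every spot outside. Only values with every spot well above background are drawn, and open circles are approximate upper limits for 10 days. The 10-day circles of 3 of the 4 dimmer probes lie between -1.93 and -1.62, that of the other at 0.03, and those of the 6 brighter probes between -0.35 and 0.08.

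Across all probes the local difference in the median at 10 days was larger at low levels. At every level a larger share of probes inside than outside was then at least 2-fold lower. Each array was set against the median of the other 3, for probes well above background on those 3. Members' probes were included, and members were chosen for a low value at 10 days. The outline of the block was also drawn after the values were seen. Part of the 10-day difference inside thus follows from the choice, and how much was not counted. At 10 days the median was -0.82 over 459 probes inside and 0.04 over 3795 probes outside for levels from -4 to -2, and 44.0% inside were at least 2-fold lower, against 5.01% outside. From -2 to 0 it was -0.34 inside and 0.02 outside, and from 0 to 2 it was -0.24 inside and -0.07 outside. From 2 to 4 it was -0.19 inside and -0.16 outside, and above 4 it was -0.17 inside and -0.23 outside. The share at least 2-fold lower was 25.0% inside and 4.14% outside from -2 to 0, and 14.3% and 3.45% from 0 to 2. It was 7.67% inside and 2.91% outside from 2 to 4, and 8.76% and 4.63% above 4. On the other arrays the median inside the block lay between -0.15 and 0.19 at every level.

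**Figure D3:**
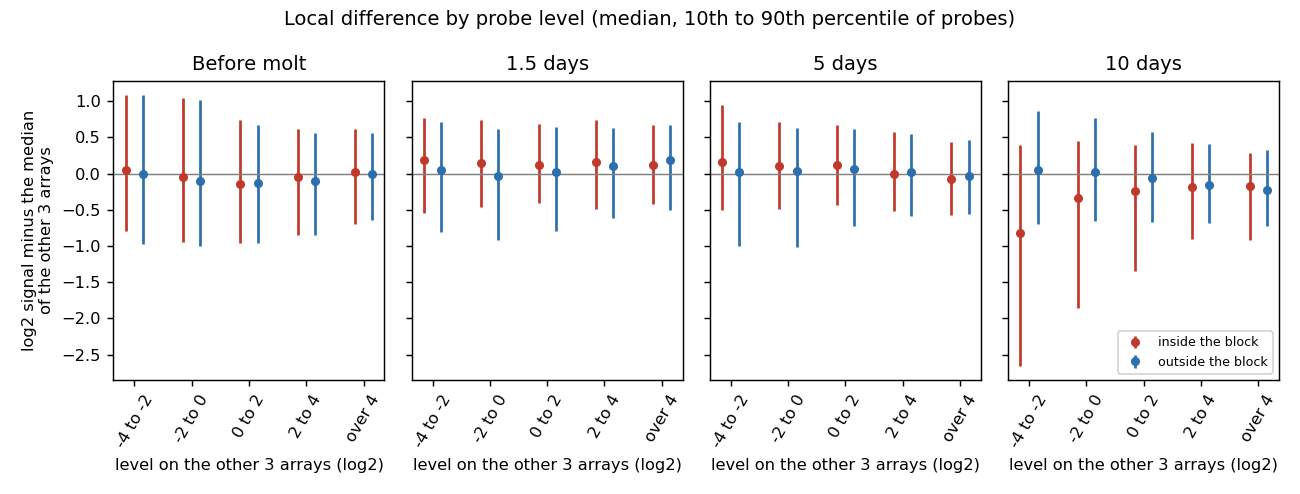
Points give the median over probes of the log2 signal on 1 array minus the median of the other 3, by level on those 3 arrays, for probes inside (red) and outside (blue) the block, and bars run from the 10th to the 90th percentile of probes. At 10 days the red point at levels from -4 to -2 stands at -0.82 and the blue one at 0.04, and the other panels have red points between -0.15 and 0.19. Members' probes are included.

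The raw brightness of the spots, members' spots included, was also lower inside at 10 days. The median raw spot signal at 10 days was 41.0 inside and 48.0 outside the block, and the median local background was 40 inside and 41 outside. On the other 3 arrays the raw signal was 51.0 to 56.0 inside and 47.0 to 52.0 outside, and the local background was 43, 44 and 44.5 inside and 43, 44 and 44 outside before molt, at 1.5 and at 5 days. Feature Extraction, the program that read the scans, flagged none (0) of the members' spots as outliers on the arrays of before molt, 1.5 days and 10 days, and 1 on the array of 5 days. The flag was rare on every array. It marked 3 spots in all on the 10-day array, 5 on the 1.5-day array, 24 on the 5-day array and 21 on the array from before the molt. With so few flags, the count of 0 does not show that the members' spots were sound.

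Some members had probes at different places on the array. Of the 199 members, 179 were read by 1 probe in use, and all 135 inside the block were among them. Of the 20 read by 2 or 3 probes, 14 had probes in both places. These probes' values went into the choice of the 14, and a probe with an earlier level under -2.5 cannot meet the rule because of the floor. As a description only, 11 of the 15 probes inside met the rule on their own and 4 of the 16 outside did. Of the 20, 3 had every probe past the rule, among 8 in which every probe could meet it. One of the 14 had drops of 1.73 on its probe inside and 1.41 on its probe outside. Another had levels of 0.80, 0.71, 0.79 and -1.93 before molt and at 1.5, 5 and 10 days on its probe inside. Its probe outside stood at 0.79, 0.70, 0.54 and 0.80 at the same times. Among the 1062 identifiers with probes in both places that are not members, the probes inside were at least 2-fold below those outside, relative to the other 3 arrays, in 170 at 10 days. They were so in 89 before molt, 41 at 1.5 days and 54 at 5 days.

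**Figure D4:**
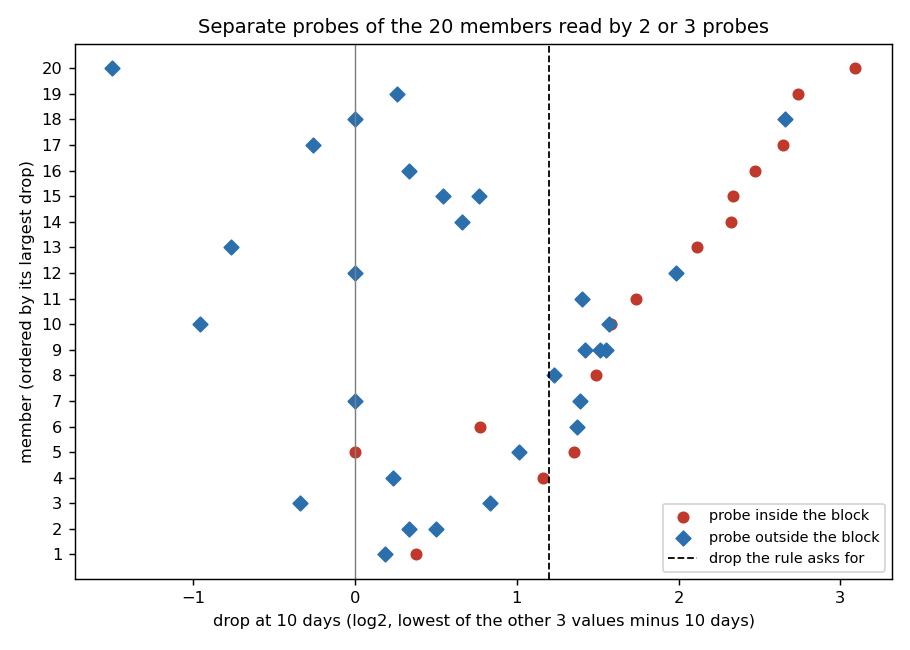
Each row is 1 of the 20 members read by 2 or 3 probes, each marker 1 probe, and the x axis the drop at 10 days on the log2 scale, with the dashed line at the 1.2 the rule asks for. For the 14 members with probes in both places, 11 of 15 red circles (inside the block) and 4 of 16 blue diamonds (outside) lie past the line, and these values took part in choosing the members.

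The choice was repeated on separate probes. Among 4610 identifiers with 2 or more probes in use, 28 met the rule on alternate probes, and on their remaining probes the median drop was -0.06, with 3 of 28 past the rule. Remaining probes with a level under -2.5 at an earlier time cannot meet the rule because of the floor. How many of the 28 could meet it was not counted, so the 3 do not give a rate of repeats. Over all 4610 the median on the remaining probes was -0.27, and 19 met the rule there, 0.412%. In 17 of the 28 the choosing probes lay inside the block and the remaining ones outside, and 2 of these 17 met the rule again. In 8 both lay outside, and 1 of the 8 met it again. The remaining probes are other probes at other spots of the same array. They thus give a second reading of the same skin sample and not a second sample. Over all 4610 identifiers the SD of the 10-day contrast between probes of 1 identifier was 0.62. The same SD was 0.72 before molt, 0.59 at 1.5 days and 0.61 at 5 days.

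Members inside and outside the block had similar median levels, while the upper quartile before molt was 0.42 inside and 1.08 outside. At 10 days 60% of those inside and 76% of those outside were well above background. The 135 inside had a median level of -0.77 before molt, followed by -0.73, -0.95 and -3.19 at 1.5, 5 and 10 days. The 50 outside had median levels of -0.75, -0.88, -0.95 and -2.98 at these times. Over all identifiers the median was lower before molt, at -1.02, and -1.06 at 10 days. The drop, the lowest of the other 3 values minus that at 10 days, had a median of 1.55 inside, with a largest value of 3.01, and a median of 1.42 outside, with a largest value of 4.92. Drops of at least 2, or 4-fold, numbered 27 inside and 4 outside.

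Every member was well above background on the 3 earlier arrays, which the rule favours, and 66 of the 199 were not so at 10 days. Another 8 were well above background at 10 days but at the floor of the rule. These 74, of which 54 lay inside the block, 17 outside and 3 in both places, have a lower limit for the drop and not a value. The limits ran from 1.201 to 4.92. For the 66 the limit is approximate, since no fixed level separates spots well above background from the others. The 3 members nearest the threshold had drops of 1.201, 1.203 and 1.205, and the 3 identifiers just short of it had 1.197, 1.195 and 1.190.

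**Figure D5:**
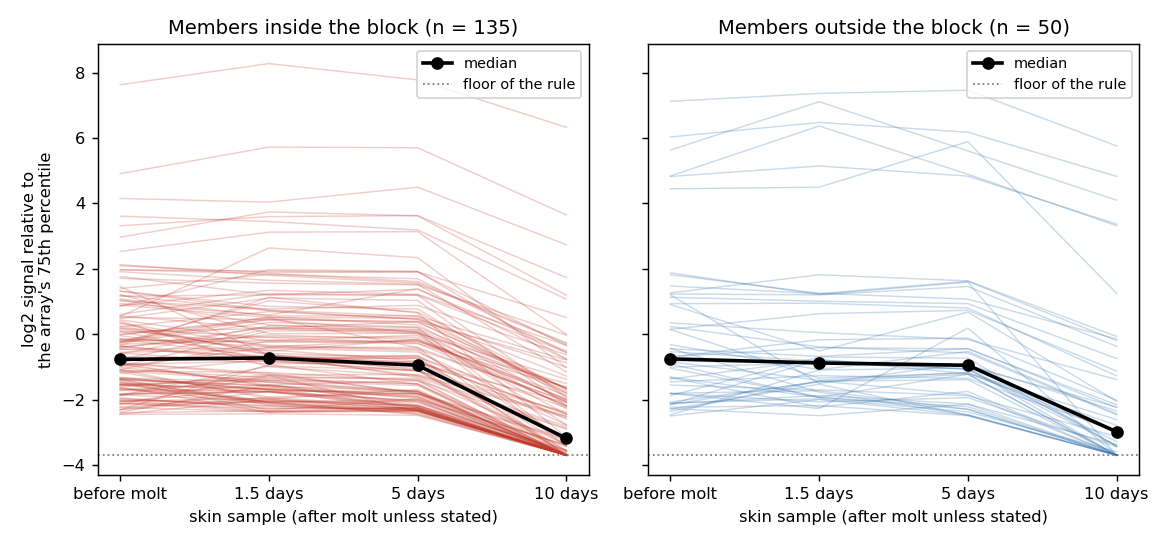
Each thin line is 1 member, with its log2 signal relative to the array's 75th percentile on the y axis and the 4 skin samples on the x axis, for the 135 members inside the block and the 50 outside, and the black line is the median. Both medians stay between -0.95 and -0.73 up to 5 days and stand at -3.19 (inside) and -2.98 (outside) at 10 days.

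Before 10 days most members were steady, as were most identifiers. The members' values before molt, at 1.5 days and at 5 days lay within 2-fold of each other in 167 of 199, 83.9%, where 72.7% of all identifiers did. Inside the block they did so in 117 of 135, 86.7%. Outside it they did so in 38 of 50, 76%, which is near the share of all identifiers. At 1.5 days 11 of 199, 5.53%, stood 2-fold or more above their level before molt and 8, 4.02%, stood 2-fold or more below it. Of all identifiers 7.67% and 12.2% did. Inside the block 4.44% were higher and 2.22% lower, and outside it 10% and 10%. At 5 days against before molt 10, 5.03%, were higher and 14, 7.04%, lower, where 8% and 12.5% of all identifiers were. Inside the block 2.96% were higher and 7.41% lower, and outside it 10% and 8%. Scaled on the spike-in probes instead, 2 of the 199 members were higher and 59 lower at 5 days. The shares over all identifiers were not counted under that scaling, so these 2 counts are not read as particular to the members. The rule uses these 3 values through their lowest, and so leaves out identifiers that were already low at 1 of these times.

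Among members with every probe in use well above background on all 4 arrays and lower at 10 days, the one with the largest drop lay outside the block. AB178596, read by 1 probe at row 496 and column 20, had a level of 4.45 in skin before molt, then 4.50 at 1.5 days, 5.89 at 5 days and 1.25 at 10 days. Its processed signals at these times were 2721, 3033, 6216 and 261 units, with spot errors of 272, 303, 622 and 26.1 units as Feature Extraction estimated them. It was thus highest at 5 days, 2.72-fold above before molt, and at 10 days 9.16-fold below before molt.

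XM_001236298 had the second largest drop by the same limits, and its spot lay inside the block at row 152 and column 28. It stood at -0.42 before molt and then, at 1.5, 5 and 10 days, at 0.22, 0.06 and -3.43, a drop of 3.01. The 2 identifiers with the largest ratio of 5 days to before molt among the other members within these limits also lay inside it. CR385167, at row 131 and column 1, had levels of 0.54, 2.64, 2.34 and -1.02, which is 3.48-fold higher at 5 days than before molt and 2.96-fold lower at 10 days. ENSGALT00000039538, at row 87 and column 1, had levels of -0.99, 0.10, 0.13 and -2.27, which is 2.16-fold higher at 5 days and 2.44-fold lower at 10 days than before molt. For the 135 members inside the block, a low level in the skin at 10 days and a low signal at that place on the array cannot be told apart.

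Of the 50 members outside the block, 6 had levels above 4 before molt, and the next lay at 1.88. Such levels were also held by 3 of the 135 members inside and 1 of the 14 with probes in both places. The brightest member of all, at 7.63 before molt, lay inside. The share over all identifiers was not counted, so these 6 are not read as a surplus of bright members. The upper quartile before molt, which does not give that share, was 1.08 outside and 1.06 over all identifiers. The brightest of the 6 stood at 7.13, 7.37, 7.46 and 5.76 before molt and at 1.5, 5 and 10 days, a drop of 1.36. The second stood at 6.03, 6.48, 6.18 and 4.83 at the same times. Both were level up to 5 days. At 10 days they lay 2.57-fold and 2.31-fold under their signal before molt.

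At 1.5 days 2 of the 6 had a peak. The third brightest, the only member (1 of 199) with 3 probes all past the rule, had levels of 5.64, 7.11, 5.61 and 4.10. Its probes, all outside the block, gave drops of 1.55, 1.51 and 1.42. It was 2.78-fold higher at 1.5 days than before molt, back at its level before molt at 5 days, and 2.90-fold lower at 10 days. The fourth brightest, read by 1 probe, had levels of 4.84, 6.37, 4.89 and 3.32, that is 2.89-fold higher at 1.5 days and 2.87-fold lower at 10 days than before molt. The fifth was level at 4.83, 5.15 and 4.84 up to 5 days and stood at 3.37 at 10 days.

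The largest drop of all members was in a transcript that was not well above background at 10 days. It lay outside the block, was read by 1 probe and had levels of 1.88, 1.22 and 1.59 up to 5 days. At 10 days it was at the floor of the rule, which lies 30.2-fold below its lowest earlier value. As its spot was not well above background, this limit is approximate. The remaining 43 members outside were dimmer before molt, at 1.82 or less. Over the first 3 times 38 of the 50 were within 2-fold, 76%, near the 72.7% of all identifiers. By kind of accession, 71 of the 199 members were chicken Ensembl transcripts, 35.7%, against 42.6% of all identifiers. RefSeq mRNAs numbered 27, 13.6%, against 18.4%, and other accessions 89, 44.7%, against 33.0%. In the 50 outside the block these shares were 38%, 18% and 36% in that order.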

How the data were processed

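The members and the lists were chosen with earlier results of these data known. Per the labels' protocols, total RNA (400 ng) was labelled with Cy3, and 1.65 µg of cRNA was hybridised. Per the submitters' processing notes, scans were read with Agilent Feature Extraction 10.7 (release 10.7.3.1 per the file headers). The deposited intensity is background-subtracted and not scaled between arrays. The deposited flags (other values, 0 or 1) mark spots well above background. The deposited series table holds log2 values with a normalization that the sources do not give.

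Processed signals of 43803 non-control spots were put on the log2 scale, the array's 75th percentile was subtracted, and probes of an identifier were averaged (Python 3.11.15, numpy 2.4.6, pandas 2.3.3). Between 52.4% and 57.5% of spots per array were well above background and 0 were saturated. The number of arrays limits the precision. A dim value at 10 days gives an approximate bound. The counting was tested on simulated data with equal noise, no local shift and only brighter identifiers lowered. Such data check the counting and not how the rule behaves on these arrays. The naming rule took the 2 largest drops, and the 2 largest ratios of 5 days to before molt, among members whose probes were well above background on all arrays. Gene lists could not be matched. The planned normexp correction (limma 3.58.1 under R 4.3.3, offset 50) used the median spot signal, because the files used here have no mean spot signal. The grid was cut into 126 tiles of 38 rows by 10 columns, and the block is 12 of them.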

Additional observations from a re-analysis of the deposited data

How the results depend on the processing

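No paired analysis was possible because each time has 1 array, and no replicate could be left out. The 199 members became 102 at a required drop of 1.5, 130 with probes well above background on all 4 arrays, 478 with no floor and 20 under normexp. The offset of 50 by construction draws dim ratios toward 0. Chosen after seeing the data, leaving out the block gave 54, and subtracting each tile's median shift gave 128. The members that still met the rule numbered 102 at a drop of 1.5, 123 with the stricter filter, 20 under normexp, 128 under spike-in scaling (6 probes), 53 without the block and 117 after tile correction. Leaving out the block removed the 135 members wholly inside it. The stricter filter removed the 66 members not well above background at 10 days. These losses were fixed by the settings, and the 53 and 123 are counts among the members left. Their median drop was 0.55 under normexp. The share of members wholly inside the block, 67.8%, was 56.7% at a drop of 1.0, 85.0% under normexp and 54.7% after tile correction, and its definition was chosen after seeing the data. Members at least 2-fold higher at 5 days than before molt were 10, against 1 under normexp, 2 under spike-in scaling and 6 without the block. Those at least 2-fold lower were 14, against 3, 59 and 4. Members wholly inside the block, 4 of the 10 and 10 of the 14, were not counted without it. The counts of 6 and 4 thus have a smaller base and do not show a change. The shares over all identifiers under these settings were not counted.

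Under normexp, identifiers apart at 1 time numbered 151 higher and 16 lower before molt (543 and 178 otherwise), 21 and 1 at 1.5 days (48 and 90), 9 and 75 at 5 days (73 and 244), and 11 higher at 10 days (114). Under spike-in scaling, 1446 were higher and 40 lower before molt, and 8 higher and 327 lower at 1.5 days. The 4 named identifiers kept their direction in 49 of 49 values. This was largely fixed beforehand, since they were members chosen for low values at 10 days. Each was also read by 1 probe, and many settings leave such a value unchanged. The drop of AB178596 ranged from 2.74 to 3.32, that of XM_001236298 from 0.93 to 3.14, that of CR385167 from 0.94 to 1.98 and that of ENSGALT00000039538 from 0.45 to 1.70. Under normexp 3 of the 4 drops fell under 1.2 (XM_001236298, CR385167 and ENSGALT00000039538). After tile correction those of CR385167 (1.13) and ENSGALT00000039538 (0.74) did, and under median centring that of ENSGALT00000039538 (1.197). Why these values moved was not tested.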

Other observations

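Spots low on 1 array only were gathered in parts of the other arrays as well. Of the spots at least 1.2 below their value on every other array, the 12 fullest of 126 tiles held 100 of 295 before molt, 62 of 113 at 1.5 days, 163 of 304 at 5 days and 175 of 243 at 10 days. At 5 days 167 of the 304, 54.9%, lay in rows from 300 on and columns up to 30, which held 15.6% of the probe spots in use. That region was not in the plan, so the share in it may follow in part from its choice. Of the spots high on 1 array only, the 12 fullest tiles held 136 of 663 before molt, 29 of 65 at 1.5 days, 46 of 105 at 5 days and 50 of 138 at 10 days. The tiles were ranked by these same counts, so that a share over 12 of 126 follows in part from the ranking, and more so where spots are few.

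Among the 1062 identifiers that are not members and have probes both inside and outside the block of rows 77 to 190 and columns 1 to 40, the probes inside were at least 2-fold above those outside, relative to the other 3 arrays, in 36 at 10 days, against 121 before molt, 95 at 1.5 days and 82 at 5 days.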
